A study of Saccharomyces cerevisiae S288C with 4 samples.

Results

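The 7 genes described here are IMD2, IMD3, IMD4, URA2, URA7, URA8 and ADE12 of the budding yeast Saccharomyces cerevisiae, nucleotide synthesis genes known for control by start-site choice and early Nrd1-dependent termination, with their close paralogs. They were picked by gene symbol from the 6396 genes of one table, and all 7 passed the filter on low counts. Messenger RNA was measured by RNA-seq in WT cells (strain BY4741) and in tho2Δ cells (strain FY254, tho2Δ::KanMX4), which lack Tho2, a subunit of the THO complex that couples transcription to mRNP assembly and export. Both strains were MATa ura3Δ0 leu2Δ0 his3Δ1 met15Δ0, and both were grown in YPD at 30 °C to mid-log phase. Each genotype had 2 libraries, numbered 3 and 4. Each genotype was a single strain, so an unlinked difference between these strains and the deletion cannot be told apart. The labels do not tell separate cultures from repeats of one culture, and the p-values rest on the spread between the libraries at hand, which may be technical.

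IMD2, IMD3 and IMD4 encode IMP dehydrogenase, which commits IMP to guanine nucleotides. ADE12 encodes adenylosuccinate synthase, which takes IMP towards AMP instead. URA2 encodes the enzyme of the first steps of de novo pyrimidine synthesis, and URA7 and URA8 encode the paralogous CTP synthases that turn UTP into CTP. At several of these genes, IMD2 and URA2 best described, RNA polymerase II starts at upstream sites when GTP or UTP is plentiful. Those short transcripts are ended early by Nrd1, Nab3 and Sen1 and are degraded by the nuclear exosome, and a shortage of the nucleotide moves the start downstream and yields the full mRNA. The counts used here are 1 value per gene, so the short transcripts and the choice of start site were not measured.

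Nrd1 is known to bind GUAA and GUAG in RNA, and Nab3 UCUU. These letters were searched, as GTAA, GTAG and TCTT on the sense strand, in the window from 250 bases before to 50 bases after the start of each annotated coding region, over 6001 such windows of the R64 RefSeq genome. The stretches below are the 30 bases of the upstream part of each window that hold the most of these letters, taken nearest the start in a tie, and they are shown because they set the gene with the most sites against the genes with few. Each is written 5′ to 3′ on the gene's own strand with GTAA, GTAG and TCTT in capitals.
ADE12, chrXIV:234244-234273, plus strand: GTAAttTCTTttTCTTactagTCTTtTCTT
URA8, chrX:620621-620650, plus strand: TCTTCTTtaTCTTgtcctttttagtttatc
IMD3, chrXII:1002371-1002400, plus strand: TCTTttttactctattTCTTtTCTTTCTTg
IMD2, chrVIII:554366-554395, plus strand: caattaataactccacaaGTAGcaaaagca
URA7, chrII:145729-145758, minus strand: aatagaacaaaagaaacttatagacagaaa

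The ADE12 window held 9 GTAA or GTAG on the sense strand, a number reached by 0.117% of all windows, and 6 TCTT, reached by 5.08%. The URA8 window held 7 TCTT, reached by 2.15% of windows, with 2 GTAA or GTAG. IMD3 held 3 GTAA or GTAG and 4 TCTT, and as many TCTT stood in 20.1% of windows. IMD2 held only 1 GTAG and 2 TCTT, URA7 held 1 GTAA and no TCTT, and IMD4 and URA2 held no GTAA or GTAG with 4 and 2 TCTT. The 7 genes thus differed widely in these letters, from more sites than nearly any other window in ADE12 to fewer than most in URA7. TGACTC, the core letters bound by Bas1 and Gcn4, searched on both strands, stood once in the ADE12 window and in none of the other members' windows, against 7.98% of all windows with at least 1. A match is a description of the letters and no evidence of binding.

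The libraries held between 31417222 and 36989697 counts. THO2, the deleted gene, had 4011 and 2457 counts in WT and 1 count in either library of the mutant, as the labels state. URA3 and MET17 had 0 counts in every library, which allows up to 3 counts per library, and STE2, the receptor of MATa cells, had 19514 to 42805 counts against 105 to 149 for STE3 of MATα cells. LEU2, deleted in both strains by the study's strain list, went against it, with 0 and 2512 counts in WT libraries 3 and 4 and with 511 and 4276 in tho2Δ libraries 3 and 4. No library but WT 3 was thus free of LEU2 reads, and the values without each library in turn are given below. HIS3, carried as his3Δ1 in both strains, had 841 and 981 counts in WT and 586 and 674 in tho2Δ. The WT libraries lay further apart (median absolute log2 difference over genes of 0.223) than the tho2Δ libraries (0.0853). WT library 4 had a TMM factor, the scaling that sets most genes level between libraries, of 0.723 against 1.003 to 1.18 in the other libraries.

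To find how loss of Tho2 altered these transcripts, all 4 libraries were compared by edgeR's quasi-likelihood test over 5890 genes. In tho2Δ cells 6 of the 7 genes were lower at an adjusted p under 0.05, while 19.1% of all genes tested were lower and 18.8% higher. IMD2 fell to 24.8% of its WT level, URA7 to 31.9%, IMD3 to 35.7% and IMD4 to 43.2%. URA2 and ADE12 changed less, to 62.7% and 71.8% of WT. URA8 did not pass the test and had the opposite sign. With tho2Δ library 3 or tho2Δ library 4 left out, the genes called lower were 2 of 7, IMD2 and URA7, where 3.98% and 3.37% of all genes were called lower. The median log2 fold change of the 7 genes was -1.21, and that of all genes tested was 0.01. In bulk RNA, fewer cells holding a transcript and less of it per cell cannot be told apart.

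**Figure D1:**
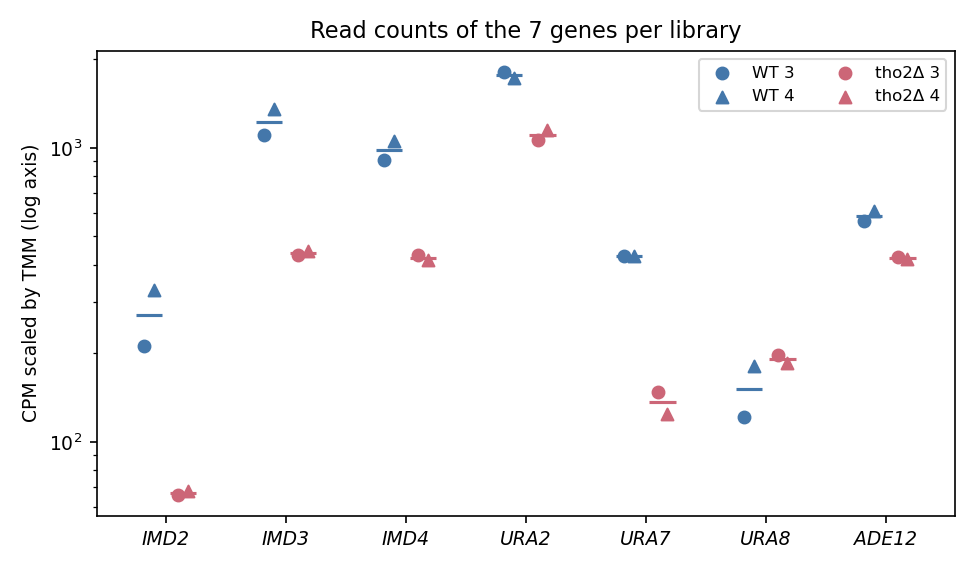
CPM scaled by TMM (log axis) of the 7 genes in the 2 WT libraries (blue) and the 2 tho2Δ libraries (red), with circles for library 3, triangles for library 4 and a line at each group's mean. The tho2Δ points lie below both WT points for all but URA8, whose WT 4 value of 181 lies just under the tho2Δ values of 185 and 198.

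IMD2, the family member whose induction by GTP-depleting drugs gives resistance to them, lies at chrVIII:554396-555967 on the plus strand, 6676 bases from the chromosome end. It had 213 and 329 CPM (counts relative to the TMM-scaled library total) in the WT libraries and 66.2 and 68.2 CPM in the tho2Δ libraries. The WT libraries were far apart, library 4 being higher, and both stood well above the tho2Δ pair, which were nearly alike. The log2 fold change was -2.01 (SE 0.22, 95% interval -2.57 to -1.45, adjusted p = 0.00299 by edgeR), the 29th lowest of the 5890 genes. It was -1.67 without WT library 4, -2.31 without WT library 3, -1.99 without tho2Δ library 3 and -2.03 without tho2Δ library 4.

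IMD3, a constitutive member of the family, lies at chrXII:1002557-1004128 on the plus strand. It had 1102 and 1357 CPM in WT and 434 and 444 CPM in tho2Δ. The groups were clearly apart, with the log2 fold change at -1.49 (SE 0.18, adjusted p = 0.00358 by edgeR). IMD4 lies at chrXIII:162194-164176 on the minus strand and is the only one of the 7 genes with an intron, of 408 bases (chrXIII:163309-163716). It had 909 and 1054 CPM in WT against 431 and 416 CPM in tho2Δ, again without overlap, as in 36.3% of all genes with tho2Δ lower, and its log2 fold change was -1.21 (SE 0.16, adjusted p = 0.00439). With tho2Δ library 3 left out the adjusted p by edgeR became 0.092 for IMD3 and 0.108 for IMD4, and with tho2Δ library 4 left out 0.0928 and 0.125, where the lone tho2Δ library was assumed to vary like the WT pair. With a WT library left out, the lone WT library was assumed to vary like the tho2Δ pair, which lay closer together. Leaving out single libraries gave -1.65 to -1.34 for IMD3 and -1.34 to -1.11 for IMD4.

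The IMD4 intron holds SNR54, a box C/D snoRNA gene (chrXIII:163535-163620). It had 62 and 30 counts in WT and 69 and 74 counts in tho2Δ. In CPM it had 1.84 and 1.28 in WT and 1.87 and 1.71 in tho2Δ, so the groups overlapped. The counts were few beside the 15935 to 30578 of IMD4, and no source at hand tells whether reads were counted by strand.

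The 3 genes are similar enough to share reads. Their coding regions were 88.9% identical between IMD2 and IMD3, 82.2% between IMD3 and IMD4 and 79.0% between IMD2 and IMD4. The reference also holds a copy of IMD2, 96.3% identical and with no annotated gene, at chrI:227742-229317, where the disrupted IMD1 is known to lie, and IMD1 was not analysed here. Stretches of 100 bases found more than once in the genome made up 9.30% of those in IMD2, 2.72% in IMD3, 2.71% in IMD4 and 0% in the other 4 genes. For stretches of 50 bases the shares were 33.7% in IMD2, 16.6% in IMD3 and 7.01% in IMD4, and the longest identical run was 94 bases between IMD2 and IMD3 and 139 bases between IMD3 and IMD4, so reads from such places could not be told apart. A matched stretch of 60 coding bases from a part where the 3 genes differ more than on average is shown for contrast, with the 24 positions at which they differ in capitals and 15 of them differing between IMD2 and IMD3.
IMD2, chrVIII:554522-554581, plus strand: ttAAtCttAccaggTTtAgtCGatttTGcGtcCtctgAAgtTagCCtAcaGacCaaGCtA
IMD3, chrXII:1002683-1002742, plus strand: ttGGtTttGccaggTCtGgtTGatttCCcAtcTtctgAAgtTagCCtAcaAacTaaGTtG
IMD4, chrXIII:163988-164047, minus strand: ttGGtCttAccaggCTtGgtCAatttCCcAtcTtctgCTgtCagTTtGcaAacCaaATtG

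Because the sum over the family does not depend on how reads were split among IMD2, IMD3 and IMD4, these rows were also added and refitted as 1 feature. Reads shared with the copy on chrI could still have been placed outside the sum. The sum was 2224 and 2739 CPM in WT and 931 and 929 CPM in tho2Δ. The family as a whole thus stood lower in tho2Δ cells, by -1.42 on the log2 scale (SE 0.22, adjusted p = 0.00678 by edgeR). The adjusted p was 0.185 without tho2Δ library 3 and 0.191 without tho2Δ library 4.

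Within the family, IMD2 made up 9.57% and 12.01% of the counts in the WT libraries and 7.11% and 7.35% in the tho2Δ libraries. Wilson 95% intervals, which cover counting error only, were 9.36 to 9.78% and 11.8 to 12.3% in WT and 6.85 to 7.39% and 7.10 to 7.61% in tho2Δ. The IMD2 share was thus lower in both tho2Δ libraries, beyond counting error. The WT libraries also differed from each other beyond counting error. Per length, the ratio of IMD2 to IMD3 in TPM (the authors' length-scaled transcript abundance) was 0.193 and 0.242 in WT and 0.153 and 0.154 in tho2Δ. The ratio of IMD4 to IMD3 was 0.823 and 0.775 in WT and 0.992 and 0.935 in tho2Δ, so the pair came close to equal in tho2Δ cells. With 2 libraries against 2 the exact two-sided permutation test cannot go below p = 0.333, which was its value for each of the 4 ratios compared, before and after Benjamini-Hochberg adjustment.

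URA7 (chrII:143989-145728, minus strand) and URA8 (chrX:620754-622490, plus strand) encode the same activity, and URA7 is known as the main isozyme. URA7 had 428 CPM in both WT libraries and 148 and 125 CPM in the tho2Δ libraries. This was the tightest WT pair of the 7 genes in TMM-scaled CPM, but in TPM the pair stood at 212 and 159. The log2 fold change was -1.65 (SE 0.14, 95% interval -1.99 to -1.31, adjusted p = 0.00185 by edgeR). Leaving out single libraries gave -1.78 to -1.53. URA8 had 121 and 181 CPM in WT and 198 and 185 CPM in tho2Δ. The groups did not overlap, but WT library 4 came within a few CPM of tho2Δ library 4, and such non-overlap with tho2Δ higher was found in 38.6% of all genes. The log2 fold change of URA8 was 0.35 (SE 0.20, 95% interval -0.16 to 0.85, adjusted p = 0.226). Without WT library 4 it was 0.65, and without WT library 3 it was 0.06.

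The balance of the CTP synthase transcripts differed more plainly than the URA8 level. The ratio of URA8 to URA7 in TPM was 0.284 and 0.423 in the WT libraries and 1.34 and 1.49 in the tho2Δ libraries. URA7 was thus the more abundant transcript in both WT libraries and URA8 in both tho2Δ libraries. The ratio was 4.07-fold higher in tho2Δ, 2.03 on the log2 scale, and it does not depend on how libraries are scaled. The log2 difference of the ratio was 1.74 without WT library 3 and 2.31 without WT library 4. Their coding regions were 71.6% identical and shared no stretch of 100 bases.

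**Figure D2:**
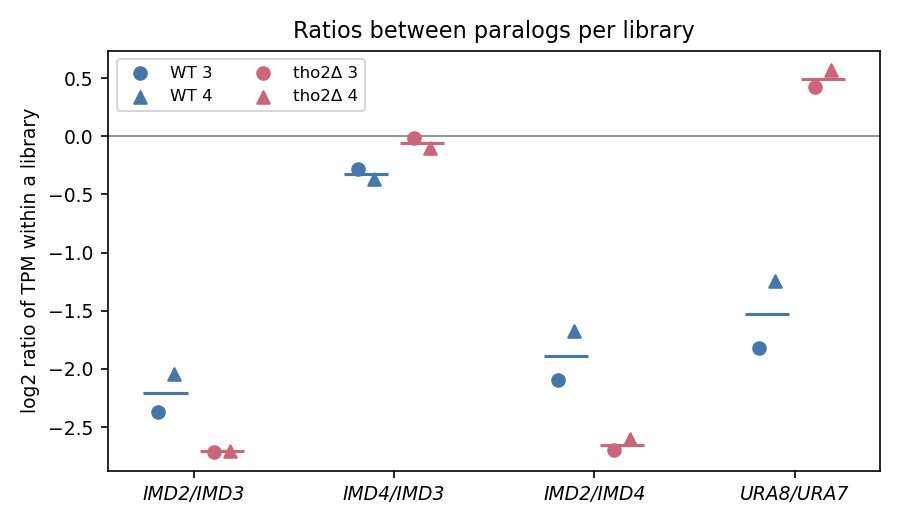
The log2 ratio of TPM between paralogs within each library, for the 2 WT libraries (blue) and the 2 tho2Δ libraries (red), with circles for library 3, triangles for library 4 and a line at each group's mean. URA8 over URA7 moves from below 0 in both WT libraries to above 0 in both tho2Δ libraries, while IMD2 lies lower against IMD3 and IMD4 in tho2Δ.

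URA2 (chrX:165723-172367, minus strand), whose product carbamoyl-phosphate synthase and aspartate transcarbamylase is inhibited by UTP, had the most counts of the 7 genes. It had 1813 and 1725 CPM in WT and 1067 and 1152 CPM in tho2Δ. ADE12 (chrXIV:234413-235714, plus strand) had 565 and 611 CPM in WT and 426 and 418 CPM in tho2Δ. In both genes the groups did not overlap in CPM, which held for 36.3% of all genes with tho2Δ lower. URA2 had a log2 fold change of -0.67 (SE 0.19, 95% interval -1.14 to -0.21, adjusted p = 0.0386 by edgeR). ADE12 had one of -0.48 (SE 0.13, 95% interval -0.81 to -0.14, adjusted p = 0.0395). On the TPM scale, which fixes each library to the same sum, both genes overlapped between groups, URA2 with 235 and 168 TPM in WT against 158 and 173 TPM in tho2Δ, and ADE12 with 374 and 304 TPM against 321 and 320 TPM. Leaving out tho2Δ library 3 or tho2Δ library 4 gave adjusted p of 0.47 and 0.394 for URA2, and 0.376 and 0.405 for ADE12, by edgeR.

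The direction of the 7 genes did not turn under any scaling tried, but the size did. With library totals in place of TMM the median log2 fold change of all genes was 0.45, against 0.01, and calls split into 1207 higher and 303 lower, against 1110 and 1127. On that scale IMD2 (-1.51), URA7 (-1.20), IMD3 (-1.02) and IMD4 (-0.75) stayed lower at an adjusted p under 0.05, 4 of 7 genes where 5.14% of all genes were called lower. URA2 (-0.23, adjusted p = 0.426 by edgeR) and ADE12 (-0.02, adjusted p = 0.941) were no longer called. URA8 (0.84, adjusted p = 0.0233) was called higher, as were 20.5% of all genes. Against the shifted median, all of them but URA8 still lay on the lower side.

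**Figure D3:**
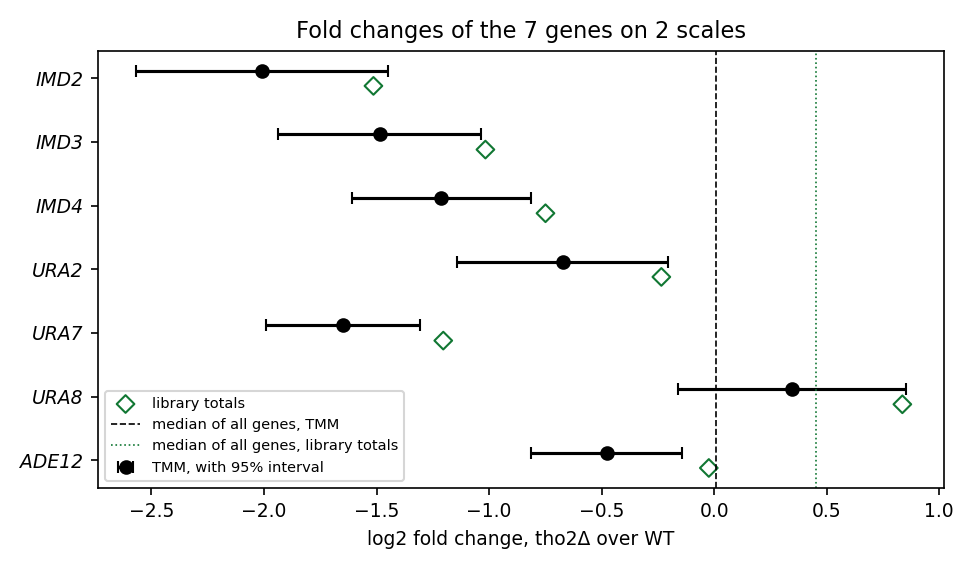
Log2 fold change of tho2Δ over WT for the 7 genes, with TMM scaling (black points, bars for the 95% interval) and with library totals (open diamonds), and vertical lines at the median of all 5890 genes on each scale (0.01 and 0.45). Every member moves to the right with library totals, as the median does, and ADE12 comes to -0.02.

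Per length, the order of the 7 transcripts changed between genotypes. In WT cells the mean TPM (± SD, n = 2) ran from IMD3 (582 ± 32.5) through IMD4 (466 ± 45.6), ADE12 (339 ± 49.6), URA2 (202 ± 47.5), URA7 (186 ± 37.5) and IMD2 (126 ± 13.2) to URA8 (63.8 ± 5.05). Only URA2 and URA7 overlapped among neighbours in that order. In tho2Δ cells it ran from ADE12 (320 ± 1.12) through IMD3 (276 ± 7.62), IMD4 (266 ± 3.89), URA2 (165 ± 10.6), URA8 (109 ± 4.04) and URA7 (77.5 ± 8.53) to IMD2 (42.3 ± 1.32). There no neighbours overlapped, although IMD3 and IMD4 came within a few TPM of each other. ADE12 thus stood first and IMD2 last in tho2Δ cells, and URA8 had passed URA7.

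Most other purine genes listed were also called lower, where 19.1% of all genes were. Of 9 genes of the branches from IMP to GMP and AMP, which include IMD2, IMD3, IMD4 and ADE12 themselves, 8 were lower and 0 higher, with a median log2 fold change of -1.09. GUA1, which makes GMP after the IMD step, went from 526 and 580 CPM in WT to 265 and 254 CPM in tho2Δ (log2 fold change -1.09, adjusted p = 0.00349 by edgeR). AMD1, the AMP deaminase that returns AMP to IMP, did not pass (0.30, adjusted p = 0.143). Of 19 genes of de novo synthesis up to IMP and its regulators, 15 were lower, 0 higher and 4 did not pass (median -0.93). With library totals 3 of the 19 were called in either direction, where 25.6% of all genes were. With TMM, the lower genes with the smallest p were PRS3 (-0.86), ADE8 (-0.90) and PRS1 (-0.93). PRS3 and PRS1 make the ribose donor PRPP, and ADE8 is the glycinamide ribonucleotide transformylase. With library totals PRS3 was at -0.42, ADE8 at -0.44 and PRS1 at -0.47, and they were not called. BAS1, an activator of the ADE genes, was among the lower genes by TMM at -1.17. PHO2, the other regulator listed, had the opposite sign at 0.40 and did not pass (adjusted p = 0.0533 by edgeR).

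The pyrimidine genes were more divided. Of 13 listed, URA3 had no counts and 12 were tested, of which 7 were lower, 2 higher and 3 did not pass (median -0.55). Among all genes tested, 19.1% were lower and 18.8% higher. Beside URA7, the lower genes with the smallest p were CPA1 (-1.29), the small subunit of the arginine-specific carbamoyl-phosphate synthase, and URA6 (-0.78), the UMP kinase. The higher genes were URA10 (1.53), the minor orotate phosphoribosyltransferase, with 14.1 and 16.7 CPM in WT and 45.5 and 42.9 CPM in tho2Δ, and YNK1 (0.58), the nucleoside diphosphate kinase. URA5, the major paralog of URA10, was lower (-0.50, adjusted p = 0.0213 by edgeR).

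Of 19 genes of salvage and uptake, 9 were lower, 2 higher and 8 did not pass (median -0.37). Among all genes tested, 19.1% were lower and 18.8% higher. AAH1, the adenine deaminase, had 165 and 174 CPM in WT and 36.6 and 27.5 CPM in tho2Δ. This log2 fold change of -2.40 (adjusted p = 0.00142 by edgeR) was lower than that of any of the 7 members. FCY2, the purine and cytosine permease, was at -1.45 and FUI1, the uridine permease, at -0.98. GUD1, the guanine deaminase (0.55), and FCY22, a relative of FCY2 (1.37), were higher, FCY22 from 1.52 and 1.11 CPM in WT to 3.71 and 3.16 CPM in tho2Δ.

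Other genes known to be held down by Nrd1 termination near their start were not called lower. There were only 4 of them, beside 19.1% of all genes lower and 18.8% higher. Of NRD1 itself (0.15), HRP1 (0.38), GSC2 (-0.29, also known as FKS2) and TIS11 (0.09), 0 of 4 passed the test by edgeR or DESeq2, and 0 had an unadjusted p under 0.05 by edgeR. With library totals 1 of the 4 was called in either direction, where 25.6% of all genes were. Among 11 genes of Nrd1 termination and nuclear RNA decay, 3 were lower, 3 higher and 5 did not pass (median -0.12). The same shares of all genes, 19.1% lower and 18.8% higher, stand beside these counts. NRD1, NAB3 (-0.12) and SEN1 (0.06), the subunits of the termination complex, were among those that did not pass. MTR4, the helicase of the TRAMP complex that feeds RNA to the exosome, went from 152 and 160 CPM in WT to 45.6 and 42.3 CPM in tho2Δ (-1.83, adjusted p = 0.00108 by edgeR). RRP6, the nuclear exosome nuclease (-1.05), and AIR2, another TRAMP subunit (-0.52), were lower, and PCF11 (0.73), GLC7 (0.56) and SSU72 (0.44), of the 3′ end processing machinery, were higher.

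Of 11 genes of RNA polymerase II and its start-site selection, 3 were lower, 0 higher and 8 did not pass (median -0.17), beside 19.1% of all genes lower and 18.8% higher. The lower ones were TOA2 (-0.62), a TFIIA subunit, and TFG1 (-0.49) and TFG2 (-0.47), of TFIIF. SUA7, which encodes TFIIB, was at -0.05 and SSL2, the TFIIH translocase known to set start sites at IMD2, at 0.42, neither passing the test.

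**Figure D4:**
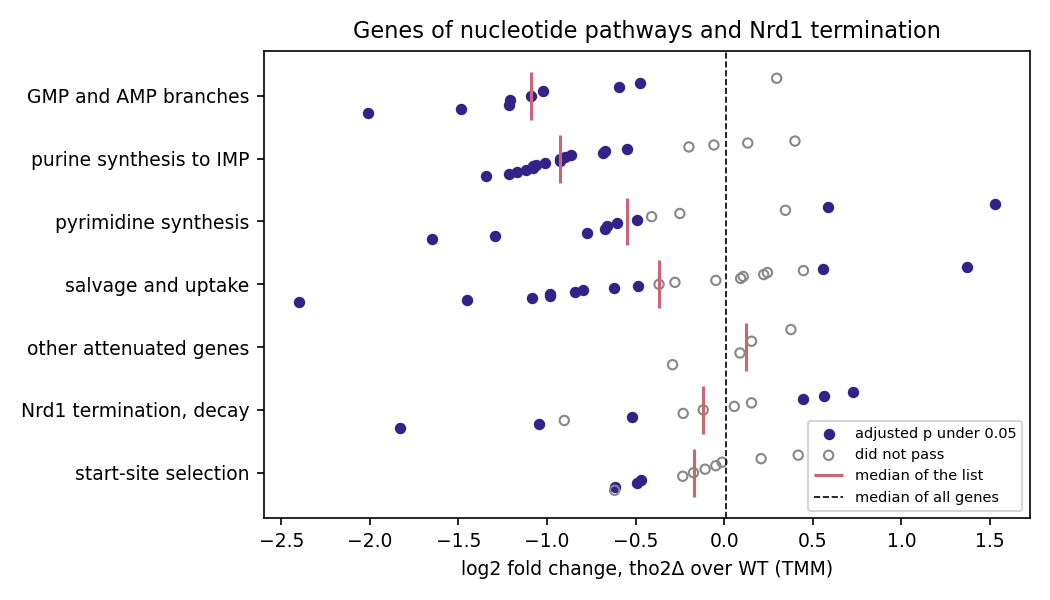
Log2 fold change of tho2Δ over WT (TMM) for each gene of 7 lists, filled where the adjusted p was under 0.05 and open where it was not, with the list median as a red bar and the median of all genes (0.01) as a dashed line. The purine lists lie almost wholly to the left of the dashed line, with medians of -1.09 and -0.93, and the other attenuated genes lie around it.

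These list counts depended on the tho2Δ libraries and on scaling. Without tho2Δ library 3 the genes called were 1 of the IMP branches, 2 of the purine list, 3 of the pyrimidine, 3 of the salvage, 2 of the termination and 0 of the start-site list, and all genes called fell from 2237 to 546. Without tho2Δ library 4 they were 1, 1, 3, 2, 1 and 0, and 507 in all. With library totals they were 5, 3, 4, 4, 3 and 1, beside 25.6% of all genes called. Leaving out WT library 3 or WT library 4 raised the start-site list to 6, and all genes called came to 3637 without WT library 3.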

How the data were processed

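RNA-seq was performed on 2 WT and 2 tho2Δ libraries. The sources differ on the RNA: the labels name an RNeasy kit, and the methods of the study a hot phenol extraction. Per the labels, the submitters' processing notes name the R64 genome, the aligner HISAT2 2.1.0, the quantifier StringTie 1.3.4d, the trimmer Trimmomatic and the demultiplexer bcl2fastq 2.20.0. The authors deposited raw read counts per gene, not normalized, and TPM, scaled for length and library by the authors. The deposited table also held 4 FPKM columns, which were not used, and 3 emptied lines. No source at hand states how reads shared by near-identical genes were placed or whether strand was used.

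Counts were fitted with edgeR 4.0.16 in R 4.3.3 (TMM, filterByExpr, glmQLFit, glmQLFTest, genotype as the sole term, two-sided, Benjamini-Hochberg over 5890 genes, threshold 0.05). SE is the absolute log2 fold change over the square root of F. The script was tested on simulated data with 5819 genes tested and gave 6 false calls. It called 68 of 68 genes changed by 2 on the log2 scale and 44 of 65 changed by 1. Of 67 genes changed by 0.58 it called 8, so most changes of that size were missed. The simulation gave every gene and both genotypes the same spread, while the real WT libraries lay further apart than the tho2Δ libraries. Its figures therefore need not hold for these data. The count totals of 31417222 to 36989697 leave counting error small for the 7 genes, so the spread between 2 libraries limits precision. The study's methods name no test for these libraries. Sequences, coordinates and annotation are from the RefSeq R64 assembly, the build of the files, in which all 7 members were found, by Biopython 1.88 and BLAST 2.17.0. Protein identity between paralogs was not analysed here.

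The calls, the members' fold changes and the list counts were also computed with DESeq2 1.42.0, with limma 3.58.1 on log2 TPM (pseudocount 1 or 0.1, mean TPM 1 or more), with the scaling changed to library totals or median-of-ratios factors, with the filter dropped or set to a mean of 50 counts, with replicate number blocked, and leaving out single libraries. The summed IMD family was refitted with the other scalings, the block and single libraries left out, and the paralog ratios as CPM ratios and with single libraries left out. The members and lists were chosen with earlier results of these data known. Named genes were the 7 members, THO2, URA3, SNR54, up to 3 called genes per list and direction by smallest p, and the 5 protein-coding genes nearest IMD2 over the 4 libraries, of which 1 is not reported here. AMD1, BAS1, PHO2, URA5, NAB3, SEN1, SUA7, SSL2 and the 4 other attenuated genes were named after their values were seen.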

Additional observations from a re-analysis of the deposited data

Results flagged for a closer look

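LEU2 is listed as deleted in both strains, yet it had reads in 3 of the 4 libraries. It had 2512 counts in WT library 4, 511 in tho2Δ library 3 and 4276 in tho2Δ library 4, and 0 in WT library 3, where up to 3 counts could go unseen. The gene was taken up because it is no part of the comparisons and lies above that limit. With the LEU2 row left out, an alternative chosen after seeing the data, the genes called were 2253 against 2237, and the 6 lower members were called again, IMD2 at -2.01 and URA7 at -1.65 on the log2 scale.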

How the results depend on the processing

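Over 13 alternatives no member changed direction, and IMD2 (-2.31 to -1.51 on the log2 scale) and URA7 (-1.78 to -1.20) were called lower in all 13. The fits without a WT library took their spread from the tho2Δ pair alone, which lay closer together than the WT pair. URA2 lost its call with library totals (-0.23), limma on log2(TPM + 1) (-0.27) and log2(TPM + 0.1) (-0.27), and ADE12 likewise (-0.024, -0.073 and -0.074). URA8 passed as higher with library totals (0.84) and limma on log2(TPM + 1) (0.77), so 1 member was called higher in each, while log2(TPM + 0.1) gave an adjusted p of 0.0502. Limma called 1463 and 1152 genes in all, 78.2% and 77.3% of them higher, and its median log2 fold changes were 0.39 and 0.42.

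With library totals, limma on log2(TPM + 1) and limma on log2(TPM + 0.1), in that order, the genes called were 5, 5 and 4 of the IMP branches, 3, 4 and 2 of the purine list, 4, 4 and 3 of the pyrimidine, 4, 4 and 4 of the salvage, 1, 1 and 1 of the other attenuated genes, 3, 3 and 2 of termination and 1, 1 and 1 of the start-site list. Of all genes tested, 25.6%, 25.4% and 20% were called in these settings, in the same order. DESeq2 called 2286 genes, 10 pyrimidine, 4 termination and 2 start-site genes among them. The cause of these moves was not tested.

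The replicate block gave 2129 genes against 2237, and URA2 (-0.67, adjusted p = 0.123 by edgeR) and ADE12 (-0.48, adjusted p = 0.113) were no longer called, leaving 4 members lower. It changed no other member's call. It called 4 termination genes and 2 start-site genes. The deviations of same-numbered libraries had a correlation of -0.029 over genes. What such libraries shared besides a number was not tested.

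Leaving out each library in turn gave 507 to 3637 genes called, 2 to 6 members lower and 0 to 1 higher. The log2 fold changes ran from -1.65 to -1.34 for IMD3, -1.34 to -1.11 for IMD4, -0.73 to -0.62 for URA2, -0.56 to -0.43 for ADE12, 0.060 to 0.65 for URA8 and -1.58 to -1.27 for the summed family. Genes called ran from 1 to 3 in the IMD list, 1 to 9 in the IMP branches, 1 to 17 in the purine, 3 to 12 in the pyrimidine, 2 to 16 in the salvage, 0 to 1 in the other attenuated, 1 to 8 in the termination and 0 to 6 in the start-site list. For the summed family, the alternatives, chosen after seeing the data, gave -0.95 with library totals and -1.41 with the replicate block. Summing IMD1 and IMD2 was not run, since IMD1 was not analysed here.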

Other observations

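Among the protein-coding genes whose profile over the 4 libraries lay nearest that of IMD2, by Euclidean distance of centred log2(CPM + 1), were SSB1 (0.110), ARG1 (0.126), RPL9A (0.165) and AAC3 (0.166). SSB1 encodes a ribosome-bound chaperone, ARG1 an arginine synthesis enzyme, RPL9A a ribosomal protein and AAC3 a mitochondrial ADP/ATP carrier. SSB1 had 3307 and 5482 CPM in WT and 1112 and 1189 CPM in tho2Δ. ARG1 had 19.7 and 32.7 CPM in WT and 5.95 and 5.42 CPM in tho2Δ. Both thus had the higher WT value in library 4, as IMD2 did, and a closely matched tho2Δ pair. SSB1 and RPL9A have near-identical paralogs, so their counts are uncertain. Of 5744 genes ranked, IMD3 stood at place 94, URA7 at 111, IMD4 at 256, URA2 at 812, ADE12 at 1101 and URA8 at 4018. With 4 libraries this distance is a description of the profiles.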
